A study of Mus musculus with 564 samples.

Results

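EGR and NR4A genes and their companions Ier2 and Ier3 were followed through the H3K27 acetylation of the cis-regulatory elements (CREs) around them. The genes were Egr1, Egr2, Egr3, Nr4a1, Nr4a2, Nr4a3, Ier2 and Ier3. A CRE was taken as a member when its centre lay within 25 kb of a RefSeq transcription start of one of these 8 genes in mm10, and 47 of the 59190 CREs of the table met that rule. The measurements came from 564 H3K27ac ChIP-seq libraries of mouse bone marrow derived macrophages (BMDMs). All cells were labelled wild type and, by the methods of the study, came from young male mice of the C57/BL6 strain. Cells received DMSO, the solvent control, or 1 of 58 clinical kinase inhibitors (CKIs) for 1 h and were then left untreated (UT) or stimulated with LPS or IL-4 at 10 ng/mL for 30 min, 1 h, 2 h or 4 h. The 18 DMSO libraries formed 9 groups of 2 replicates, namely UT and 4 times after each stimulus, while the 546 CKI libraries covered 474 combinations of compound, stimulus and time by 1 library and 36 by 2. CKIs were used at doses that differed between compounds, and the UT libraries carry the time 0 h in their titles but 4 h in their treatment labels. Nothing in the labels ties replicates to separate animals or cultures, so every p-value measures the spread between these samples, which may be technical.

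Immediate early genes are switched on by signalling within minutes, without new protein synthesis, and most of them are switched off again soon after. EGR proteins are zinc-finger transcription factors and NR4A proteins are orphan nuclear receptors, and both families are textbook targets of the RAF, MEK and ERK kinase cascade, which reaches their promoters through serum response factor (SRF) and its partners or through CREB-type factors. In macrophages the cascade is engaged by LPS through TLR4, next to p38, JNK and NF-kB signalling, while IL-4 acts mainly through STAT6. H3K27ac marks active promoters and enhancers, so its level at these CREs follows the local activity of chromatin and is not a measurement of transcripts.

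Between 2 and 9 CREs belonged to a gene. Egr3 and Nr4a1 had 9 each, Ier3 had 7, Egr2 and Ier2 had 6, Egr1 and Nr4a2 had 4, and Nr4a3 had 2. No CRE was shared between the genes. For each gene 1 CRE that overlaps a transcription start was taken as the promoter CRE. In all, 9 CREs overlap a start, since Nr4a2 has a second one, at +0.1 kb of another of its starts. The CREs other than the promoter CREs are named by the distance of their centre from the nearest start of the gene, with minus for upstream. By RefSeq, 25 of the 47 centres were intergenic, 12 intronic, 5 in a coding exon and 5 in an untranslated exon. For 14 members the nearest start belonged to another gene. Among these, the CRE at +10.7 kb of Egr2 lies 295 bp from the start of Ado, that at -25.0 kb of Ier2 lies 21 bp from the start of Nacc1, that at +16.0 kb of Ier3 lies 560 bp from the start of Tubb5, that at +19.7 kb of Ier3 lies 63 bp from the start of Mdc1, and that at +17.3 kb of Nr4a1 lies 137 bp from the start of Atg101. The CREs at -23.0 and -20.4 kb of Egr3 sit in introns of Pebp4. Neighbourhood is the rule by which members were chosen and says nothing about which gene a CRE acts on.

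Sequences of 4 promoters and 2 distal CREs are printed to show the sites named below, and no test of acetylation used these sites. RefSeq promoter entries were matched for 5 of the 8 genes, namely Egr2, Nr4a1, Nr4a2, Nr4a3 and Ier3. Egr2 has 5 starts there, and the 250 bases before 4 of them hold a CArG box, the element bound by SRF. The window printed (chr10:67537619-67537868, plus strand, GRCm38.p6, the assembly of mm10) was picked for holding the most sites, 1 CArG box and 2 of TGACG, a CREB-type element, in capitals. Those of Nr4a1 (chr15:101266596-101266845, plus strand) and Nr4a2 (chr2:57124004-57124253, minus strand) carry TGACG at 4 places each on either strand (CGTCA on the other strand), in capitals. That of Ier3 (chr17:35821463-35821712, plus strand) carries 1 site of the NF-kB type, in capitals. The 300 central bases of the CRE at -11.3 kb of Egr2 (chr10:67524044-67524343) and of the CRE at -12.7 kb of Ier3 (chr17:35808848-35809147), both read on the plus strand, carry TGANTCA, the AP-1 element, in capitals.
Egr2 promoter: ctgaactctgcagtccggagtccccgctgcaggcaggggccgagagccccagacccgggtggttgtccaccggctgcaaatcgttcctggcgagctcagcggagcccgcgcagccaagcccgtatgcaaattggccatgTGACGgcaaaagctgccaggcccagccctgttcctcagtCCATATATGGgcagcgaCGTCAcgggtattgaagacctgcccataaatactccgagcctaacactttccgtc
Nr4a1 promoter: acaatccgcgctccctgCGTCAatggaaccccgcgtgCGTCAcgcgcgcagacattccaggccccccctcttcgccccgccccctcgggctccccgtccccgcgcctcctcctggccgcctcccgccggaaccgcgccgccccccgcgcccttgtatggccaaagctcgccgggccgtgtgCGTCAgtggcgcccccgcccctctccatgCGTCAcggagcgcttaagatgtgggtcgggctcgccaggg
Nr4a2 promoter: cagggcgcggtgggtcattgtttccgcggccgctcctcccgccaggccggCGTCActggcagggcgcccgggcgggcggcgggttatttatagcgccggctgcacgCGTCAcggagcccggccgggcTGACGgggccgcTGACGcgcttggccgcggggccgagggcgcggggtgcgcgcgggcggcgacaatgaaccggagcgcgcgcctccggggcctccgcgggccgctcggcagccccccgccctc
Ier3 promoter: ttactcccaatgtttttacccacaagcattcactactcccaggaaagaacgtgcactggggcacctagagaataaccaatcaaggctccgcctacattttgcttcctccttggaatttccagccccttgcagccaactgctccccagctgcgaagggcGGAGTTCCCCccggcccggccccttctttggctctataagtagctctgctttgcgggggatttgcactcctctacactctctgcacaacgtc
Egr2 -11.3 kb: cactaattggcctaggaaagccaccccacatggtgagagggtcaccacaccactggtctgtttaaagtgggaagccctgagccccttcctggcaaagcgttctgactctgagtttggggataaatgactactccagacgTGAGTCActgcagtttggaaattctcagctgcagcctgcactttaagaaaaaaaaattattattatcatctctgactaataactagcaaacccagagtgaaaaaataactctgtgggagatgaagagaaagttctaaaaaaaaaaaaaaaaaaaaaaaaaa
Ier3 -12.7 kb: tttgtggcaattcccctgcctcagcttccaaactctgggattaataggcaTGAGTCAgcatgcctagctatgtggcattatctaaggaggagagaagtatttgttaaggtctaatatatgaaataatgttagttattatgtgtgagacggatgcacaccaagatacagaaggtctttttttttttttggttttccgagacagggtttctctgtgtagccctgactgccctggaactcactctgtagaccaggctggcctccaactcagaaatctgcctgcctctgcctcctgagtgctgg

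Among 32851 RefSeq promoters read over the same 250 bases, 1.467% held a CArG box, 17.77% TGACG and 3.899% the NF-kB site, on either strand. In the central 300 bases of CREs, a CArG box stood in 4 of the 47 members (8.511%) and in 1.487% of all 59190 CREs. These 4 were the Egr1 promoter, with 3 sites, the Egr3 promoter and the CREs at -11.2 and -2.5 kb of Egr3. TGANTCA stood in 11 members (23.4%) against 20.24% of all CREs, and TGACG in 9 members (19.15%) against 14.83%. The letters AAAGGTCA, to which NR4A proteins bind as monomers, were in 0 of the 47 windows and in 1.527% of all windows. TGACG lies within longer cAMP response elements, and a match describes letters, not binding.

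Values are the authors' normalized read counts per CRE, rounded to whole numbers, and differences are given as log2 of the value plus 5. A CRE was called in a time course when the moderated F-test of limma gave an adjusted p under 0.01 over all CREs tested and the difference from UT was over 1 on the log2 scale at 1 or more times. CREs differ in width, so levels are compared within a CRE and not between CREs. In a population of cells, fewer cells carrying the mark and less mark per cell cannot be told apart. DMSO replicates correlated at Pearson r of 0.960 to 0.982 over all CREs, and summed values ran from 5923684 to 6873668 in DMSO libraries and from 4066894 to 12391409 in CKI libraries. The contrast of a library, the ratio of the median value in the most strongly marked 10% of CREs to that in the most weakly marked 10%, was 46.5 to 100.5 in DMSO libraries and 3.32 to 57.7 in CKI libraries, so weakly marked CREs sat higher relative to strongly marked ones in most CKI libraries. The PH797804 library after 30 min of LPS listed 12451 CREs at 0, while the median CKI library listed 114. Promoter CREs of all 6 macrophage markers (Adgre1, Csf1r, Cd68, Itgam, Spi1 and Mertk) were in the table, with a summed value of 4743 to 7279 in DMSO libraries. Of the neutrophil markers 1 of 4, S100a8, had a promoter CRE, at 3 to 35, and those for T cells, B cells, fibroblasts and erythroid cells had 0 of 3 each.

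Of the EGR genes, Egr1 and Egr3 had a brief rise of promoter acetylation after LPS, and Egr2 a longer one after both stimuli. The Egr1 promoter (chr18:34859050-34862450), the classical SRF target, stood at 106 and 89 in the UT libraries, at 330 and 373 after 30 min of LPS, at 91 and 100 after 1 h, at 77 and 39 after 2 h and at 89 and 104 after 4 h. The 2 libraries at 30 min were above every other DMSO library of the LPS series, and by 1 h the values were back in the UT range. The rise at 30 min was 1.80 (SE 0.22, adjusted p = 1.77e-08), and the value at 2 h was -0.77 from UT (adjusted p = 0.00316). After IL-4 the same promoter read 155 and 151 at 30 min, 98 and 115 at 1 h, 63 and 47 at 2 h and 59 and 71 at 4 h. These values passed above UT at 30 min, by 0.63, and below it at 2 h, by -0.78, neither large enough to be called. LPS exceeded IL-4 at 30 min by 1.17 (SE 0.22, adjusted p = 1.75e-05).

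Upstream of Egr1 the 2 CREs described next moved apart. The weak CRE at -11.1 kb, which lies 9.5 kb from the start of Reep2, stood at 8 and 8 in UT, at 36 and 48 after 30 min of LPS and at 8 to 17 at the later LPS times. Its rise at 30 min was 1.84. The CRE at -5.6 kb stood at 206 and 174 in UT, at 198 and 235 after 30 min of LPS, and at 58 to 94 from 1 h on. Its libraries at 1, 2 and 4 h did not overlap with UT, and its largest change was at 2 h, where it fell by 1.61 on the log2 scale (SE 0.20, adjusted p = 1.78e-08). After IL-4 it declined more slowly, to 71 and 95 at 4 h, and fell by 1.16 on the log2 scale.

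**Figure D1:**
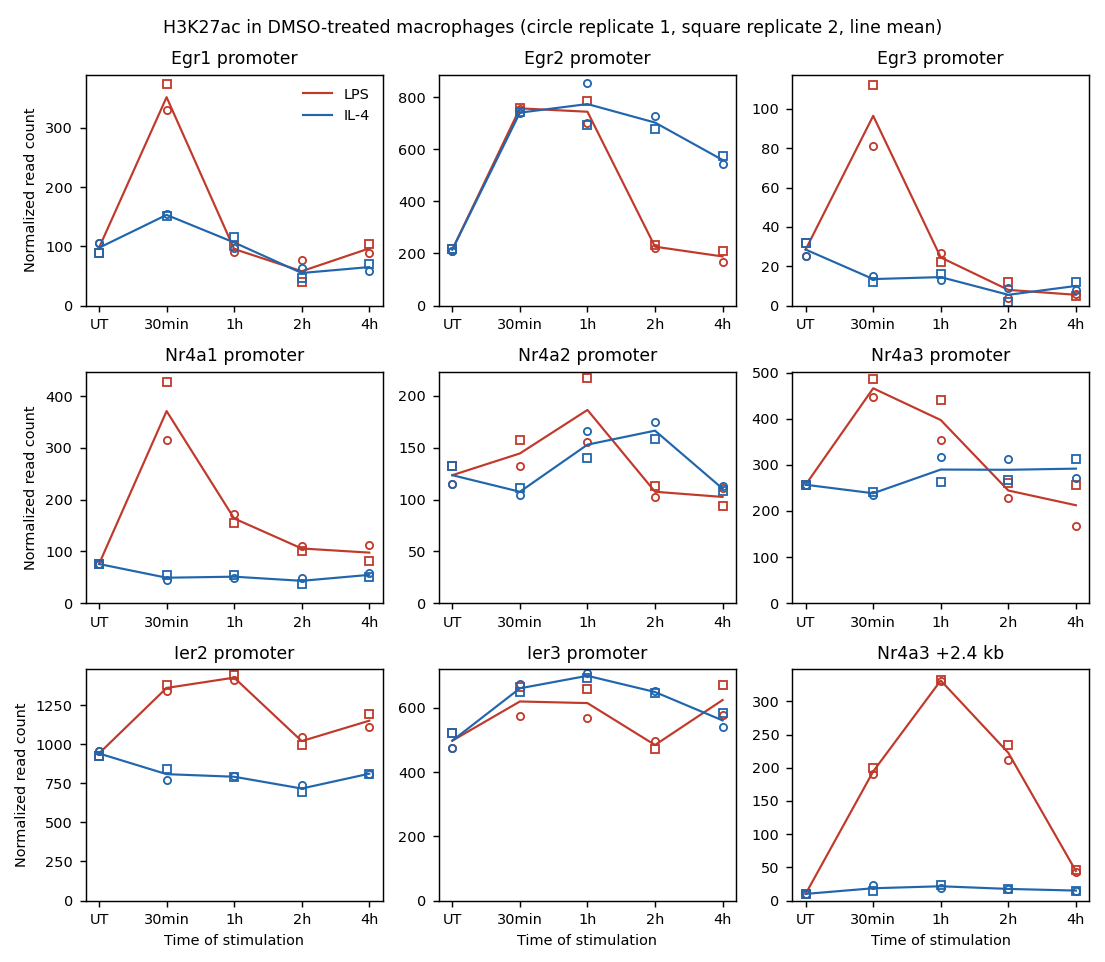
Normalized H3K27ac values (linear axis from 0) of the 8 promoter CREs and of the CRE at +2.4 kb of Nr4a3 in DMSO libraries, untreated and after 30 min to 4 h of LPS (red) or IL-4 (blue). Circles are replicate 1, squares are replicate 2 and lines join the means; the Egr1, Egr3 and Nr4a1 promoters peaked at 30 min of LPS, while the Egr2 promoter stayed at 543 or more through 4 h of IL-4.

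The Egr2 promoter (chr10:67534582-67540056) rose after LPS and IL-4 alike and then parted between them. It stood at 211 and 219 in UT. After LPS it read 754 and 759 at 30 min, 702 and 785 at 1 h, 221 and 231 at 2 h and 168 and 209 at 4 h. After IL-4 it read 737 and 743, then 852 and 694, then 726 and 678, and 543 and 574 at 4 h. The stimuli gave close values in the first hour and stood apart from 2 h on, where LPS libraries were back near UT and IL-4 libraries were not. LPS raised it by 1.79 at 30 min (SE 0.13, adjusted p = 1.14e-13) and by 0.07 at 2 h, whereas IL-4 raised it by 1.76 at 30 min (SE 0.10), 1.68 at 2 h and 1.36 at 4 h. The difference between LPS and IL-4 was 0.03 at 30 min (adjusted p = 0.839, and -0.11 with quantile normalization), -1.61 at 2 h (SE 0.11, adjusted p = 5.38e-16) and -1.55 at 4 h.

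The distal CREs of Egr2 went different ways, with LPS above IL-4 at -11.3 kb and IL-4 above LPS from 2 h on at +10.7 kb, as at the promoter. The CRE at -11.3 kb (chr10:67523389-67524998), whose centre is printed above, stood at 10 and 4 in UT, at 79 and 66 after 30 min of LPS, at 154 and 104 after 1 h and at 49 to 67 afterwards. After IL-4 its values lay between 7 and 28. LPS libraries at every time were thus above every IL-4 library. LPS raised it by 2.73 at 30 min (adjusted p = 3.73e-10) and by 3.50 at 1 h (SE 0.28, adjusted p = 7.04e-13). The CRE at +10.7 kb (chr10:67547123-67550197), at the start of Ado, stood at 353 and 337 in UT, at 604 to 720 in the first hour of LPS and at 273 to 359 later, and between 635 and 846 at every IL-4 time. It was called after IL-4 (1.27 at 1 h) and not after LPS (0.93 at 1 h). At the weak CREs at +4.5 and +21.4 kb both stimuli were called, with 2.30 and 1.86 after 1 h of LPS, and 1.42 at 30 min and 1.59 at 1 h of IL-4. Over the gene, 5 of 6 CREs were called after LPS and 4 of 6 after IL-4, all higher. Of all CREs, 53.5% and 24.7% were called in either direction.

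Egr3, the third zinc-finger factor, showed the opposite balance. Its promoter (chr14:70076110-70077657) stood at 25 and 32 in UT, at 81 and 112 after 30 min of LPS, at 27 and 22 after 1 h, at 4 and 12 after 2 h and at 6 and 5 after 4 h. The 30 min libraries were the highest and those at 2 and 4 h were below UT, so the promoter rose by 1.59 (SE 0.35, adjusted p = 0.000275) and then fell by 1.67 on the log2 scale at 4 h. After IL-4 the values were between 2 and 16 throughout, below both UT libraries, with -1.75 at 2 h. The difference between the stimuli at 30 min was 2.44 (SE 0.38, adjusted p = 5.37e-07). Its CREs upstream started higher and fell. At -20.4 kb (chr14:70055582-70058181) the values were 425 and 388 in UT, 312 and 408 after 30 min of LPS, 113 and 120 after 1 h, 69 and 67 after 2 h and 151 and 123 after 4 h. All LPS libraries from 1 h on lay below UT, and the change at 2 h was -2.49 (SE 0.17, adjusted p = 6.79e-15). After IL-4 it read 168 to 233, a fall of 1.02 on the log2 scale at 4 h. Of the 9 CREs of Egr3, 8 were called after LPS and 7 after IL-4, each of them lower at its largest difference. The shares of all CREs called in either direction were 53.5% and 24.7%.

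The NR4A genes differed among themselves. The Nr4a1 promoter (chr15:101265221-101267552), which carries the 4 TGACG elements printed above, stood at 76 and 75 in UT, at 315 and 427 after 30 min of LPS, at 172 and 155 after 1 h, at 110 and 101 after 2 h and at 113 and 82 after 4 h. Every LPS library was above UT, with the highest values at 30 min. The rise was 2.21 at 30 min (SE 0.19, adjusted p = 6.35e-12), 1.06 at 1 h and 0.46 at 2 h. After IL-4 the promoter read 37 to 59, below UT in all 8 libraries, but the time course was not called (-0.76 at 2 h, F-test adjusted p = 0.0576). LPS exceeded IL-4 by 2.79 at 30 min (SE 0.21, adjusted p = 1.47e-14), 1.59 at 1 h and 1.21 at 2 h.

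At the CREs upstream of Nr4a1 described next, acetylation fell after IL-4 and went both ways after LPS. The CRE at -9.8 kb, in an intron of a longer Nr4a1 transcript, read 46 and 34 in UT and 137 and 162 after 30 min of LPS, a rise of 1.79, against 10 to 41 after IL-4, with -1.26 at 2 h. The CRE at -13.4 kb (chr15:101251984-101254886), intergenic like those at -19.6 and -22.8 kb, read 131 and 109 in UT, 218 and 270 after 30 min of LPS and 34 to 51 at 2 and 4 h. It thus passed from above UT (0.99) to below it (-1.50 at 2 h, SE 0.21, adjusted p = 1.68e-07, and -1.15 at 4 h, SE 0.21, adjusted p = 1.72e-05). After IL-4 it was at 34 to 81, with -1.47 at 4 h. The CRE at -19.6 kb (chr15:101245553-101248953) read 230 and 246 in UT and 78 to 144 after IL-4, without overlap, with -1.43 at 2 h (SE 0.17, adjusted p = 1.67e-09), while after LPS it was at 254 and 277 at 30 min and at 120 to 211 later, which was not called. At -22.8 kb both were called, with -1.20 at 2 h of LPS and -1.92 at 2 h of IL-4.

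Nr4a2 had no called CRE. Its promoter (chr2:57122832-57125044), with 4 TGACG elements as well, read 115 and 132 in UT, 132 and 157 after 30 min of LPS, 156 and 217 after 1 h and 94 to 113 later. Values overlapped with UT at 30 min and exceeded it at 1 h by 0.56, too little for a call. After IL-4 it read 104 to 175. By limma, 0 of the 4 CREs of Nr4a2 were called after LPS and 0 of the 3 tested after IL-4. Among all CREs, 53.5% and 24.7% were called. The nearest to a call after LPS was the weak CRE at +12.3 kb (chr2:57101880-57103505), at 3 and 6 in UT and 23 and 21 after 30 min of LPS, with a difference of 1.52 and an F-test adjusted p of 0.0109. The weak CRE at +0.1 kb, which overlaps another Nr4a2 start, read 21 and 17 in UT and 43 and 43 after 30 min of LPS. Its difference at 30 min was 1.01 (SE 0.32, adjusted p = 0.00812), but the F-test adjusted p of 0.0181 left it uncalled.

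At Nr4a3 the largest change of all members stood next to a promoter that moved little. The promoter CRE (chr4:48042080-48045866) read 257 and 257 in UT, 447 and 486 after 30 min of LPS, 354 and 441 after 1 h and 168 to 260 later. It was above UT in the first hour, by 0.85 at 30 min (SE 0.16, adjusted p = 2.62e-05), which is below the size needed for a call. The CRE at +2.4 kb (chr4:48046386-48048924), in an untranslated exon just downstream of the start, read 10 and 10 in UT, 190 and 199 after 30 min of LPS, 331 and 332 after 1 h, 211 and 234 after 2 h and 43 and 46 after 4 h. No LPS library overlapped with UT, and the rise was 3.73 at 30 min, 4.49 at 1 h (SE 0.20, adjusted p = 9.45e-20), 3.92 at 2 h and 1.72 at 4 h. After IL-4 it stayed at 14 to 24, with 0.81 at 1 h, which was not called. LPS exceeded IL-4 there by 3.11 at 30 min and by 3.67 at 1 h.

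Ier2 and Ier3 started from high promoter values and changed less at the promoter than at distal CREs. Ier2 encodes a small nuclear protein induced by growth factors. Its promoter (chr8:84659269-84665878) read 958 and 924 in UT, 1338 and 1382 after 30 min of LPS, 1411 and 1441 after 1 h, 1046 and 994 after 2 h and 1109 and 1192 after 4 h. Every LPS library was above UT and every IL-4 library, at 695 to 844, was below it. These shifts passed the adjusted p but stayed small, at 0.60 at 1 h of LPS (SE 0.08) and -0.39 at 2 h of IL-4, so neither was called. The CRE at -18.2 kb of Ier2 (chr8:84680259-84681921), in an intron of Nacc1, was called after LPS. It read 20 and 20 in UT, 76 and 64 after 30 min and 49 to 72 later, with 1.58 at 30 min and 1.24 at 4 h, and 10 to 22 after IL-4. The CRE of Ier2 with the smallest p after IL-4, at -25.0 kb (chr8:84685393-84690289) and the start of Nacc1, reached 0.54 at 4 h and was not called.

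Ier3, an NF-kB and stress target known to modulate cell death, had its called rise after IL-4 at a distal CRE. Its promoter (chr17:35820476-35824205), with the NF-kB type site printed above, read 475 and 521 in UT, 473 to 670 after LPS and 539 to 708 after IL-4. LPS values overlapped with UT and IL-4 values did not, yet the differences were at most 0.32 and 0.49. The CRE at -12.7 kb (chr17:35807346-35810648) read 242 and 219 in UT, 731 and 757 after 30 min of IL-4, 598 and 633 after 1 h, 519 and 587 after 2 h and 605 and 571 after 4 h. After LPS it stayed at 169 to 253, overlapping with UT. IL-4 raised it by 1.67 at 30 min (SE 0.10, adjusted p = 8.08e-20) and by 1.33 at 4 h, and LPS minus IL-4 was -1.64 at 30 min and -1.51 at 4 h. The CRE at -22.6 kb (chr17:35798330-35799976) behaved in the other way, at 42 and 52 in UT, 160 and 159 after 30 min of LPS and 27 to 59 after IL-4, a rise of 1.67 with LPS. The remaining CREs of Ier3 were not called after either stimulus.

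**Figure D2:**
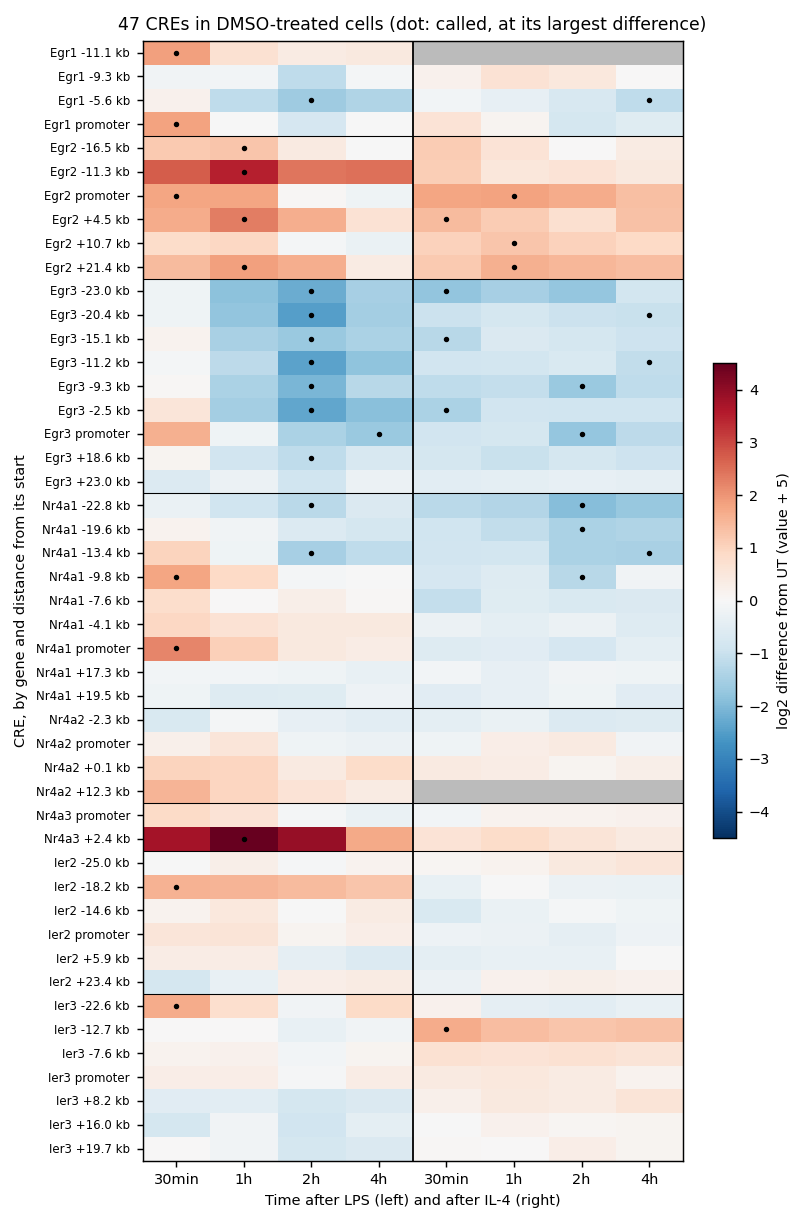
Log2 difference from UT of the 47 member CREs (rows, by gene and distance from the start) at 4 times of LPS (left) and of IL-4 (right) in DMSO libraries. Dots mark the time of the largest difference of called CREs, and grey rows are the 2 CREs not tested after IL-4; Egr2 CREs are red under both stimuli, Egr3 CREs are blue, and red at -12.7 kb of Ier3 is seen in the IL-4 columns.

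Counted over the 47 members, all of which were tested after LPS, 23 were called (48.9%), against 53.5% of all CREs tested. Of these, 12 were higher and 11 lower at their largest difference, where 29% of all CREs were called higher and 24.5% lower. After IL-4, 45 members passed the minimum mean value and 17 were called (37.8%), against 24.7% of all CREs, with 5 higher and 12 lower (13.6% and 11% of all CREs). With 20 in place of 5 added to each value, 11 members were called after IL-4, 3 of them higher. Calls over all 47018 CREs tested then fell as well, from 11606 to 7568. Without the first UT library 11 members were called after IL-4 too, 3 of them higher. The share of all CREs without that library is not given here, so this count is not set against one. The share called after LPS is thus near that of all CREs. The higher calls came early and the lower calls late. After 30 min of LPS, 15 members were higher and 0 lower by the rule for a single time (16.3% and 13.1% of all CREs), at 1 h 8 were higher and 7 lower (19.5% and 15.1%), at 2 h 5 and 12 (21.3% and 19.7%), and at 4 h 3 and 9 (20.5% and 15.8%). The 12 higher calls had their largest difference at 30 min in 7 cases and at 1 h in 5, and the 11 lower calls at 2 h in 10 cases and at 4 h in 1. The median difference at 30 min of LPS was 0.31 for members and 0.05 for all CREs. After 30 min of IL-4 the median was -0.22 for members and 0.09 for all CREs, with 4 members higher and 6 lower (10.9% and 1.96% of all CREs). At 1 h of IL-4 there were 5 and 3 (9.46% and 4.6%), at 2 h 4 and 7 (8.69% and 8.66%) and at 4 h 4 and 7 (8.61% and 6.37%).

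LPS and IL-4 time courses share the 2 UT libraries, so their calls are given side by side. In all, 14 members were called in both, 3 of them higher in both (the Egr2 promoter and its CREs at +4.5 and +21.4 kb), 10 lower in both and 1, at -9.8 kb of Nr4a1, with a rise under LPS and a fall under IL-4. A further 9 were called after LPS alone and 3 after IL-4 alone. Over all CREs, 53.5% were called after LPS and 24.7% after IL-4. The share of all CREs called in both was not counted, so these joint counts are not read as a trait of the members. The direct comparison of LPS with IL-4, which does not use the UT libraries, was possible for 46 members. It called 17 higher and 1 lower after LPS at 30 min (12.4% and 17.1% of all CREs), 8 and 1 at 1 h (18.1% and 16.8%), 5 and 9 at 2 h (21.8% and 19.6%), and 6 and 4 at 4 h (20.6% and 17.8%). In either direction the shares of all CREs were 29.4%, 34.9%, 41.4% and 38.4%. The 1 lower at 30 min was the CRE at -12.7 kb of Ier3. Over the 4 times, 27 members were called at 1 or more, against 59.2% of all CREs.

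The mean profile of the 8 member promoters over the 9 DMSO groups, each standardized, was highest at 30 min of LPS (1.40) and at 1 h of LPS (0.83), lay between -0.44 and 0.15 at the IL-4 times and was lowest at 2 h of LPS (-0.71). Among the promoter CREs of 5035 other protein-coding genes that varied by at least 1 on the log2 scale, those of Pam (Pearson r = 0.973), Gng4 (0.969), Dennd5a (0.968), Phf19 (0.965) and Zfp948 (0.958) were the most like it. These r values are over 9 group means that share their libraries with the members, and they describe likeness of shape in these groups.

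Other immediate early genes and genes of ERK feedback were read at their promoter CREs as a reference. Of 22 immediate early genes, 20 had a promoter CRE (not Egr4 and Ccn1). After LPS 4 were called higher, with Maff (a small MAF factor) at 3.09, Gadd45b at 2.20, Csrnp1 at 1.65 and Atf3 at 1.03, and 6 lower, among them Fos, the AP-1 subunit, at -1.36, Klf2 at -2.02 and Klf10 at -2.09. Of all CREs, 29% were called higher and 24.5% lower after LPS, and 13.6% and 11% after IL-4. After IL-4, Srf itself was called higher at 1.07, and Fos (-1.42) and Klf10 (-1.11) lower. Of 13 feedback genes, which encode phosphatases and adaptors that restrain ERK signalling or are induced by it, 12 had a promoter CRE. After LPS 5 were higher, among them Dusp4 at 1.16, Dusp5 at 1.09 and Errfi1 at 1.31, and 4 lower, among them the ERK phosphatase gene Dusp6 at -2.01. After IL-4, Dusp4 (1.70) and Spry1 were higher and Spry2, Spred1 and Spred2 lower. The median at 30 min of LPS was 0.48 for the immediate early list, 0.92 for the feedback list, 1.22 for the 8 member promoters and 0.05 for all CREs. Of the member promoters 3 were called higher (Egr1, Egr2 and Nr4a1) and 1, Egr3, lower at its largest difference. The shares of all CREs given above stand beside the counts of each list.

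The question of the inhibitors was whether these CREs differed in acetylation between cells given MEK or ERK inhibitors and cells given other CKIs. Per the study, doses were set by binding of each CKI to its intended target in vitro, which may not match potency in cells. Whether MEK or ERK activity was blocked at these doses was not tested here. The class held 5 compounds, the MEK inhibitors Pimasertib, Refametinib and Selumetinib and the ERK inhibitors Ulixertinib and GDC0994. Refametinib was listed by the study with MAPK10 as its intended target but is designated as an inhibitor of MEK1/2. They were compared with the other CKIs, 49 to 52 at each time, as DMSO libraries differ from CKI libraries in contrast, and the RAF inhibitor Encorafenib was left out of both. Each compound counted once, since most had 1 library per time.

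After 30 min of LPS, the time of the highest Egr1 and Nr4a1 values, member promoters in the class did not sit below those of the other CKIs. The Egr1 promoter read 240 with Pimasertib, 414 with Refametinib, 401 with Selumetinib, 301 with Ulixertinib and 367 with GDC0994. The other CKIs ran from 127 through a median of 286 to 489, and DMSO read 330 and 373. The class lay inside that range, with 4 of its 5 values above the median. The difference between class and other CKIs was 0.29 (95% interval -0.11 to 0.68, adjusted p = 0.845). The Nr4a1 promoter read 483, 359, 322, 336 and 348 in the same order, against 118 to 381 in the other CKIs with a median of 297. Pimasertib was the highest of all 58 CKIs there, and the difference was 0.38 (0.05 to 0.72, adjusted p = 0.845). The Egr2 promoter read 632, 821, 854, 871 and 610, against 377 to 1013 with a median of 700, a difference of 0.16 (-0.17 to 0.48). For Egr3 it was 0.16 (-0.28 to 0.60), for Nr4a2 0.03 (-0.36 to 0.42), for Nr4a3 0.30 (0.00 to 0.59), for Ier2 0.23 (-0.09 to 0.55), for Ier3 0.30 (0.00 to 0.60) and for the CRE at +2.4 kb of Nr4a3 0.03 (-0.38 to 0.45). The lower ends of these intervals leave room for a class effect of -0.11 at the Egr1 promoter and of -0.17 at the Egr2 promoter, and for one of -0.38 at +2.4 kb of Nr4a3. The small differences at the Egr2, Ier2 and Nr4a2 promoters changed sign under 1 or more of the other settings tried, to -0.078, -0.012 and -0.10 at their lowest.

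**Figure D3:**
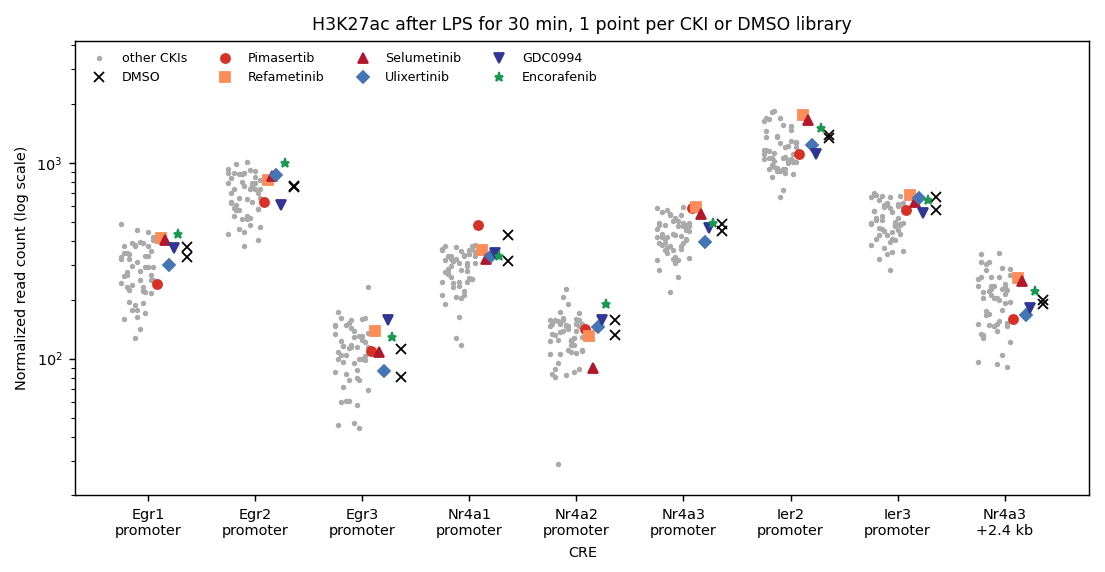
Normalized H3K27ac values (log axis) after 30 min of LPS at the 8 promoter CREs and the CRE at +2.4 kb of Nr4a3. Grey points are the other CKIs, coloured points are the 3 MEK inhibitors, the 2 ERK inhibitors and Encorafenib, and crosses are the 2 DMSO libraries; the coloured points fall among the grey ones, except Pimasertib at the Nr4a1 promoter, which is the highest of 58 at 483.

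No member was called between class and other CKIs at any time or stimulus, where the calls over all CREs were 0% at UT, at 30 min and 1 h of LPS and at each IL-4 time, 0.00169% at 2 h of LPS (1 CRE) and 0.0101% at 4 h of LPS (6 CREs). At an unadjusted p under 0.05 there were 1 of 47 members at UT (2.08% of all CREs), 6 at 30 min of LPS (5.19%), 0 at 1 h (6.97%), 2 at 2 h (7.27%) and 10 at 4 h (9.46%). At the IL-4 times such members numbered 0, 2, 0 and 0 (1.65%, 3.25%, 2.58% and 1.71% of all CREs). The 6 at 30 min of LPS were higher in the class, namely the Nr4a1, Nr4a3 and Ier3 promoters, the CREs at -23.0 kb (0.51) and -15.1 kb (0.65) of Egr3 and that at -7.6 kb of Ier3 (0.41). At that time 38 members were higher and 9 lower in the class, with a median of 0.16, against -0.03 over all CREs, and the other immediate early promoters were higher in 19 of 20 cases (median 0.27) and the feedback promoters in 11 of 12 (median 0.18), with 0 of either called. Member CREs of 1 gene share their surroundings and compounds share the stimulus, so these counts are not independent. Without the PH797804 library, which is among the other CKIs, the difference was 0.27 at the Egr1 promoter and 0.36 (0.06 to 0.67) at the Nr4a1 promoter, with 8 members at an unadjusted p under 0.05 and 0 called.

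At 4 h of LPS the balance was the other way, with 15 members higher and 32 lower in the class. The median difference was -0.15 for members and -0.07 over all CREs, so all CREs leaned lower in the class as well. The Egr1 promoter read 55, 95, 65, 94 and 37 with Pimasertib, Refametinib, Selumetinib, Ulixertinib and GDC0994, against 43 to 209 in the other CKIs with a median of 108. All 5 values were below that median, GDC0994 below every other CKI, and the difference was -0.66 (-1.05 to -0.27, adjusted p = 0.213). The CREs at -5.6 kb of Egr1 (-0.58), +21.4 kb of Egr2 (interval -1.77 to -0.24) and -13.4 kb of Nr4a1 (-0.61) were also lower, with intervals that left out 0. These adjusted p-values did not pass, so the difference at 4 h is a size with its interval and not a call. Without stimulus the Egr1 promoter was at 69 to 99 in the class, -0.32 from the other CKIs (-0.62 to -0.02, adjusted p = 1.00).

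**Figure D4:**
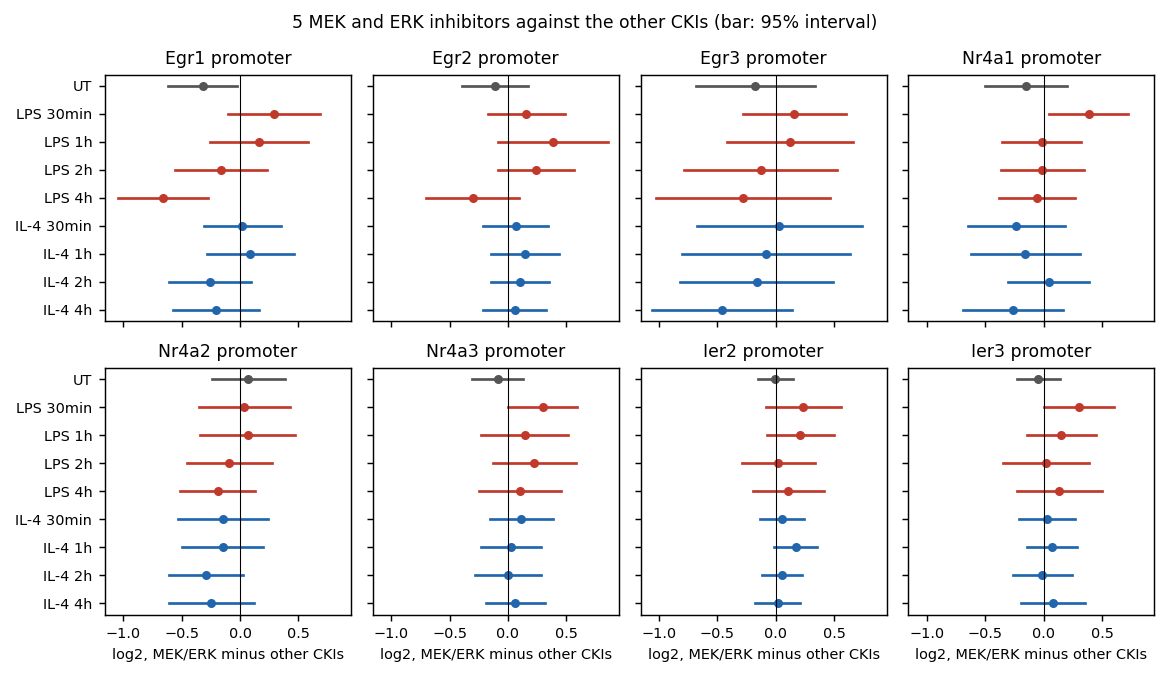
Difference between the 5 MEK and ERK inhibitors and the other CKIs (log2, with 95% interval) at the 8 promoter CREs without stimulus and at each time of LPS and IL-4. Most intervals include 0; that of the Egr1 promoter at 4 h of LPS runs from -1.05 to -0.27, and none was called after adjustment over all CREs.

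The induction itself was tested by subtracting each compound's own UT value. At the Egr1 promoter the rise from UT to 30 min of LPS was larger in the class than in the other CKIs by 0.61 (0.06 to 1.15), at the Nr4a1 promoter by 0.54 (0.05 to 1.03) and at the Nr4a3 promoter by 0.38 (0.01 to 0.76). At the Egr1 promoter the class also stood lower in UT, as given above, and that lower start enters the difference. In this test 0 CREs were called, 2.43% of all CREs had an unadjusted p under 0.05 and 4 of 47 members did. For LPS minus IL-4 at 30 min the class was higher at the Nr4a1 promoter by 0.62 (0.08 to 1.16) and at -23.0 kb of Egr3 by 0.64 (0.01 to 1.28), with 0 called, 1.86% of all CREs and 3 members at an unadjusted p under 0.05. Columns of the table form 6 runs of 8 or 10 CKIs, whose median library contrast ranged from 10.8 to 32.3, and the class was spread over 3 of them. Against the mean of 8 other CKIs of its own run, the Egr1 promoter at 30 min of LPS was -0.31 with Pimasertib (SD of the 8 values 0.29), 0.41 with Refametinib and 0.37 with Selumetinib (SD 0.59), 0.09 with Ulixertinib (SD 0.36) and 0.29 with GDC0994 (SD 0.29). The Nr4a1 promoter was 0.67, 0.53, 0.38, 0.08 and 0.20 in the same order, with SDs of 0.27, 0.46, 0.46, 0.21 and 0.27. Each of these 5 Nr4a1 values was thus above its run mean, and 2 of them, with Pimasertib and Refametinib, by more than 1 SD.

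The early rise was seen with the inhibitors too. At the Egr1 promoter all 58 CKIs were above their own UT value after 30 min of LPS, by a median of 1.40, from 0.20 with PH797804 (a p38 inhibitor) and 0.28 with AZD2014 (an mTOR inhibitor) to 2.50 with Refametinib. The LPS value of PH797804 rests on the library with 12451 CREs at 0, and the part of this in its low rise was not tested. At the Egr2 promoter all 58 were above as well, from 0.43 with AZD2014, and at the Nr4a1 promoter from 0.20 with Talmapimod to 2.78 with Refametinib. At the CRE at +2.4 kb of Nr4a3 it was again 58 of 58, with a median of 2.15. The Egr3 promoter was above UT in 56, the Nr4a3 promoter in 54, the Ier2 promoter in 46, the Ier3 promoter in 37 and the Nr4a2 promoter in 33. By 2 h of LPS the Egr1 promoter was above UT in 7 of 55 CKIs and below it in 47. Of the IL-4 responses, the Egr2 promoter was above UT in each CKI at each time (58 of 58, 58 of 58, 56 of 56 and 55 of 55), with medians from 1.43 to 1.56, and so was the CRE at -12.7 kb of Ier3, with medians of 1.23, 1.19, 1.04 and 1.06. The lowest Egr2 values were with Talmapimod (0.49, 0.25 and 0.24) and, at 4 h, Mubritinib (0.57), and the lowest at -12.7 kb of Ier3 were with PF04691502 at 30 min (0.56) and, from 1 h on, with the JAK1 inhibitor Filgotinib (0.28, 0.25 and 0.28).

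Each CKI was last compared with DMSO over its whole time course, called at an adjusted p under 0.05 and a difference over 0.5. After LPS, 548 pairs of member and CKI were called higher and 56 lower, where 32.3% and 4.04% of all pairs of CRE and CKI were called higher and lower. After IL-4, 855 were higher and 31 lower (36.2% and 3.03%). The higher calls gathered on weakly marked members. Of the 3 groups of members by mean DMSO value, the lowest, at 8.39 to 37.9, held 482 of the higher and 0 of the lower calls after LPS, and the highest, at 126 to 1003, held 12 and 41. Weakly marked CREs also sat higher in libraries of low contrast, such as those of the CKIs, and the part of contrast in these calls was not tested. With quantile normalization, which gives each library the same distribution of values, 24 pairs were higher and 33 lower after LPS (1.99% and 2.63% of all pairs), and 27 and 59 after IL-4 (2.78% and 3.76%). Against the mean of all compounds in place of DMSO, 19 pairs were higher and 44 lower after LPS (1.26% and 1.52% of all pairs), and 55 and 35 after IL-4 (2.7% and 1.28%).

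At the Egr2 promoter after LPS, MK2206 (an AKT inhibitor, -0.70, SE 0.19, adjusted p = 0.00614), PF04691502 (a PI3K and mTOR inhibitor), X396 and XL413 were lower than DMSO, and the first 3 were also lower against the mean of all compounds. With quantile normalization 0 CKIs were lower there and 9 were higher, where the comparison as made had 1 higher. At the Nr4a3 promoter AMG208, AZD8186, Lenvatinib, MK2206 (-0.64) and TG100115 were lower, of which MK2206 was lower against the mean as well, and with quantile normalization 0 were. At the Ier3 promoter 6 CKIs were lower, with AZD2014 at -0.75 (SE 0.15, adjusted p = 1.01e-05), which was also lower against the mean, and with quantile normalization 0 were lower. At the Ier2 promoter AZD2014 (-0.54, but 0.13 with quantile normalization) and PF04691502 were lower, against 0 under either alternative. At the Egr1 promoter 3 CKIs were higher and 0 lower, with Losmapimod, a p38 inhibitor, highest at 0.70. There quantile normalization gave 0 higher and 2 lower, and the mean of all compounds 1 higher and 1 lower (AZD2014). The Nr4a1 promoter had 1 higher and 0 lower, against 0 and 0 under either alternative. The Nr4a2 promoter had 0 higher and 1 lower (BGT226, -0.53), against 1 lower with quantile normalization and 0 against the mean. After IL-4, 0 CKIs were called at the Egr2, Ier2 and Nr4a3 promoters, where no difference reached 0.5, and the lowest at Egr2 was -0.49 with XL413 (adjusted p = 0.000685), which was called lower against the mean of all compounds. At the Nr4a1 promoter 39 CKIs were higher, against 2 with quantile normalization, and at +2.4 kb of Nr4a3 52 were higher, against 4, with Omipalisib the highest at 2.29 in the comparison with DMSO. At the Nr4a2 promoter 9 were lower after IL-4, Refametinib (-0.56) among them, with 9 lower by quantile normalization and 0 against the mean of all compounds.

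For the MEK and ERK inhibitors the same comparison gave no lower call at the Egr1, Egr2, Egr3 or Nr4a1 promoter after either stimulus. The Egr1 promoter after LPS was -0.08 from DMSO with Pimasertib, 0.05 with Refametinib, -0.09 with Selumetinib, 0.01 with Ulixertinib and -0.11 with GDC0994, each with an SE of 0.21 or 0.22, and 0.40 with Encorafenib. Over the 47 members, Pimasertib had 13 higher and 0 lower calls after LPS, GDC0994 14 and 0, Ulixertinib 7 and 1, Encorafenib 10 and 0, and Refametinib and Selumetinib 0 and 0. Over all CREs these compounds were called at 41.9%, 51.1%, 34.6%, 37.7%, 0.94% and 1.27%. The median contrast of the libraries was 12.5 to 27.7 for the first 4 compounds and 32.7 and 34.5 for Refametinib and Selumetinib, so the 2 compounds with the fewest calls had the highest contrast of the 6. After IL-4, Pimasertib was higher at the Egr3 (0.94) and Nr4a1 (0.83) promoters and GDC0994 at the Nr4a1 promoter (0.88). They were among 21 CKIs called higher at the Egr3 promoter and 39 at the Nr4a1 promoter. With quantile normalization 0 were higher at Egr3 and 2 at Nr4a1, Silmitasertib and X396. Against the mean of all compounds, Pimasertib and GDC0994 each had 0 members called after IL-4.

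**Figure D5:**
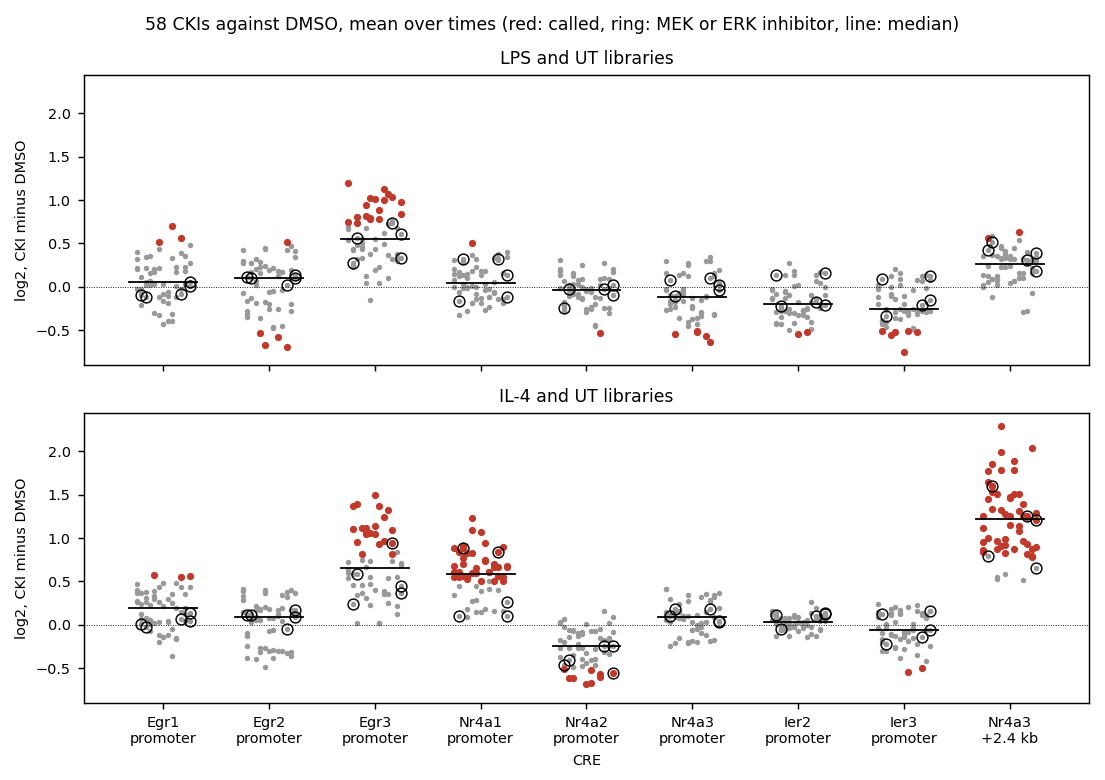
Log2 difference from DMSO, averaged over UT and the times, of each of the 58 CKIs at the 8 promoter CREs and the CRE at +2.4 kb of Nr4a3, for LPS (top) and IL-4 (bottom). Red points are called, rings mark the 5 MEK and ERK inhibitors and lines are medians; after IL-4, 39 CKIs are called higher at the Nr4a1 promoter and 52 at +2.4 kb of Nr4a3, while at the Egr2 promoter none is.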

How the data were processed

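H3K27ac ChIP-seq values of 564 BMDM libraries were taken from a deposited matrix of 59190 CREs (mm10). Per the methods, adapters were removed and single-end reads were cut to a common length and mapped with ShortStack by the authors (the submitters' processing notes name Bowtie and SAMtools, with no version), who counted reads around ATAC-seq peaks and scaled each library on peaks that did not vary. The deposited values are therefore a score per CRE, normalized read counts rounded to whole numbers, and not raw counts, so count models were not used. All sample columns were mapped to labels by name. Sequencing depth is unknown, since summed values are after scaling.

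Members were found by the rule in the opening, with RefSeq starts of GRCm38.p6. Members and gene lists were chosen with earlier results of these data known. For each gene the promoter CRE and the other CRE with the smallest F-test p after each stimulus were named, with 5 genes of like shape and the lowest and highest CKI per promoter; the remaining CREs and CKIs given with values (such as those at -11.1 kb of Egr1, +4.5 and +21.4 kb of Egr2, -9.8 and -22.8 kb of Nr4a1) were picked after their values were seen.

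Tests were made with limma 3.58.1 in R 4.3.3 (trend) on log2(value + 5), on CREs with a mean of at least 10, with Benjamini-Hochberg adjustment over all CREs tested. Adding 5 understates the change of weakly marked CREs. Time courses used the 10 DMSO libraries of UT and 1 stimulus, and LPS against IL-4 used all 18. MEK and ERK inhibitors were compared with the other CKIs at each time, with 1 mean value per compound and an adjusted p under 0.05. Each CKI was compared with DMSO over UT and the times of a stimulus, with time as a term. Repeat libraries of 1 compound, stimulus and time, which carry the suffix b in their titles, were averaged. Scripts were tested on simulated data. Alternatives were other pseudocounts, no filter on low values, quantile and median-of-ratios scaling, a replicate block, leaving out each replicate or compound, and run or contrast as a covariate. Tables and figures were made with Python 3.11.15, pandas 2.3.3, data.table (version 1.17.8) and matplotlib 3.10.9.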

Additional observations from a re-analysis of the deposited data

Results flagged for a closer look

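Among 72 groups of 5 values, 1 per MEK or ERK inhibitor, for each of the 8 promoter CREs in each condition, 2 held a value set apart from the other 4 by Dixon's ratio at its 95% level, and chance sets apart about 1 in 20. At the Nr4a1 promoter after 30 min of LPS, Pimasertib read 483 while the other 4 compounds read 322 to 359 (ratio 0.732). At the Egr3 promoter after 30 min of IL-4, Selumetinib read 7 while the other 4 read 20 to 28 (ratio 0.726). Both are single libraries.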

How the results depend on the processing

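Replicate numbers did not pair the DMSO libraries: over 36 pairs of groups the correlation of the deviations of same-numbered libraries was -0.087 to 0.066. With a replicate block 23 members were called after LPS (12 higher) and 17 after IL-4 (5 higher), 27 between LPS and IL-4. With a pseudocount of 20, 11 members were called after IL-4 (3 higher), and 7568 of all CREs. Leaving out each DMSO replicate gave 21 to 24 members after LPS (11 to 13 higher), 11 to 17 after IL-4 (3 to 6 higher), with 11 and 3 without the first UT library, and 24 to 28 between LPS and IL-4. Shares of all CREs without each replicate are not given here, so these counts are not set against them. The difference between LPS and IL-4 at 30 min turned at the Egr2 promoter to -0.11 with quantile normalization, and at the Ier3 promoter to 0.025 with median-of-ratios scaling, and ranged there from -0.20 to 0.011 when each replicate was left out.

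Of MEK and ERK inhibitors against other CKIs, 7 CREs of all were called over the LPS times. There were 15 with a pseudocount of 1 and 15 with 20, 0 to 11 when each compound was left out (0 without Pimasertib, 11 without Ulixertinib), 1 with MEK inhibitors alone, 1 with ERK inhibitors alone, 32 with the run and 27 with contrast as a covariate. With ERK inhibitors alone 1 was called after IL-4, and with quantile normalization 1 without stimulus. At 30 min of LPS the Egr2 promoter turned to -0.078 with quantile normalization and to -0.019 and -0.021 with run or contrast as a covariate, Ier2 to -0.012 with quantile normalization, and Nr4a2 to -0.10 with MEK inhibitors alone, with -0.033 to 0.16 when each compound was left out (-0.0030 without Ulixertinib, -0.033 without GDC0994).

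For CKIs against DMSO after LPS, 57 pairs were called with quantile normalization (24 higher, 33 lower) and 63 against the mean of all compounds (19 higher), and median-of-ratios scaling called 171 lower. Leaving out a DMSO replicate gave 431 to 435 (373 to 395 higher, 40 to 58 lower). After IL-4 the counts were 86 (27 and 59) and 90 (55 higher), with 229 lower by median-of-ratios and 14 lower with a pseudocount of 20, and 673 to 755 (648 to 720 higher, 25 to 35 lower) without a replicate. Turned values after LPS were Ier2 with AZD2014 (0.13, quantile). After IL-4 they were Egr3 with Lenvatinib (-0.32 with a pseudocount of 1, -0.79 quantile, -0.22 median-of-ratios, -0.016 to 0.050 without a replicate, -0.67 against the mean), Ier2 with PF04691502 (0.044, quantile), Nr4a1 with VX702 (-0.0034 quantile, -0.47 against the mean) and Nr4a2 with BMS387032 (-0.057, median-of-ratios). The causes were not tested.

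With 2 libraries a group and mostly 1 library per CKI and time, small differences cannot be seen, and the depth as sequenced is unknown.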

Other observations

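Pairs of libraries of 1 compound, stimulus and time show the spread between CKI libraries of 1 condition at these promoters. At the Egr1 promoter after 30 min of LPS the pair of Afatinib libraries read 141 and 493, with library contrasts of 8.09 and 28.1, and the pair of TG100115 libraries read 297 and 104. The pairs of SNS314 (493 and 485) and SGI1776 (364 and 309) lay close together. At the same time of LPS the lowest and highest CKIs at the Egr1 promoter were Lenvatinib (127) and SNS314 (489), at the Egr2 promoter PF04691502 (377) and Vandetanib (1013), and at the Nr4a1 promoter PH797804 (118) and Pimasertib (483).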
